A study of Homo sapiens with 4 samples.

Results

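In HCT116 colon cancer cells, 186 genes had less RNA in the migrating subpopulation than in the non-migrating one both with vehicle and after 5-azacytidine, out of 13146 genes that were well above background on all 4 arrays. HCT116 is an epithelial colon cancer cell line. MG cells are the HCT116 cells enriched by repeated passage through the membrane of a transwell chamber toward serum, and non-MG cells are those that stayed behind, so both come from one parental line and neither is a clone picked as a single cell. Each was given 5 µM 5-azacytidine, a cytidine analog that blocks DNA methyltransferases, or vehicle for 48 h, and 400 ng of total RNA from each was labeled with Cy3 and hybridized to 1 one-color Agilent whole-genome array. The 4 conditions were non-MG cells with vehicle, non-MG cells with 5-azacytidine, MG cells with vehicle and MG cells with 5-azacytidine, with 1 array each, so no difference has a replicate check and no test between conditions was possible. All arrays lay on 1 slide, where the cell type went with the row and the treatment with the column, so that position and group cannot be told apart.

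The members were chosen by the 2 differences between MG and non-MG cells, and those differences are therefore given only as a description. The level of a probe is the log2 of its background-corrected intensity minus the log2 of the 75th percentile of its array, so a level of 0 is an intensity at that percentile. A probe was selected where its level was lower in MG cells by at least 0.8, a fold of 1.74, in the vehicle pair and again in the 5-azacytidine pair. Of 17119 probes with a RefSeq accession, 207 were selected, which belong to 174 genes with a current RefSeq symbol and to 12 accessions that matched no symbol. The share was 1.41% of the genes that could have been selected, and 145 genes passed the same limit in the opposite direction, so that 56.2% of the calls were lower. The zero point matters for these counts. When the median of each array rather than its 75th percentile was set to 0, every difference shifted up by 0.19 with vehicle and by 0.26 after 5-azacytidine, 72 genes were lower and 495 higher by the limit, and 12.7% of the calls were lower. In the vehicle pair alone 570 probes (3.33%) were lower by at least 0.8 and in the 5-azacytidine pair alone 458 (2.68%). The selected probes were 36.3% of the first set and 45.2% of the second.

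Hypoxia-inducible factor is a transcription factor whose alpha subunits are hydroxylated and degraded when oxygen is plentiful, and whose targets raise glucose uptake and glycolysis, hold back mitochondrial use of pyruvate and feed back on the factor itself. Immediate early genes, such as those of the FOS, JUN and EGR families, are transcribed within minutes of growth factor or serum stimulation without new protein synthesis, largely through serum response factor bound to CArG boxes in their promoters. In colon epithelium, claudins and tight junction scaffolds seal the sheet of cells, and LGR receptors amplify Wnt signals.

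Promoter sequences are shown for members of the hypoxia list and for EGR1, because these genes are described first and the core letters of the best known factors can be read in them. The 250 bases before the RefSeq start site of each gene (GRCh38.p14) were searched for ACGTG, the core of the hypoxia response element, on both strands, so that CACGTG counts as a match on each strand. Of 27305 promoters in the RefSeq set, 18.7% held ACGTG. Of the 14 members of the hypoxia list, 13 had a promoter in the set, and 9 of these (69.2%) held it. The share was 54.5% (18 of 33) over the whole measured hypoxia list and 23.8% over the 10040 tested genes that had a promoter in the set. Capitals mark ACGTG or its reverse complement in these stretches, each written 5′ to 3′ on the strand of the gene.
ANKRD37 (chr4:185396669-185396712, plus strand): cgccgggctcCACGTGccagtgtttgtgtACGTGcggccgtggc
ALDOC (chr17:28577120-28577145, minus strand): aagtgcccggCACGTGgtaaagggat
ANGPTL4 (chr19:8363911-8363935, plus strand): aaagaagagtCACGTctcccacggt
DDIT4 (chr10:72273789-72273813, plus strand): aacgttgcttACGTGcgcccggagt
ENO2 (chr12:6914452-6914476, plus strand): ccgcgctcgtACGTGcgcctccgcc
P4HA1 (chr10:73096938-73096962, minus strand): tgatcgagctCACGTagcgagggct
BHLHE40 held 4 matches in the window, and ANKRD37 and ALDOC 3 each. ADM, KDM3A, MXI1 and PDK1 had no match in this window.
EGR1 is shown for the CArG box, which 1.14% of all promoters in the set held and which stands in capitals here.
EGR1 (chr5:138465364-138465415, plus strand): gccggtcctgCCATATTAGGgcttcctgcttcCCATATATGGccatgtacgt
Among the 9 immediate early members, EGR1 was the only promoter with a CArG box in these 250 bases. A match is a run of letters and does not show that a factor was bound in these cells.

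By mean difference, the lowest members were DHRS2, ANKRD37 and ANXA10. DHRS2, a short-chain dehydrogenase, had levels of 6.12 in non-MG cells with vehicle, 6.45 in non-MG cells with 5-azacytidine, 2.66 in MG cells with vehicle and 3.65 in MG cells with 5-azacytidine. It was 11.1-fold lower in MG cells with vehicle and 6.95-fold lower after 5-azacytidine. ANXA10, an annexin of gastric epithelium, had levels of 0.56 and 0.16 in non-MG cells and of -2.45 and -2.29 in MG cells, in the order vehicle and 5-azacytidine. Its MG signals were near the lower end of what the arrays measured, and the spot error of its differences of -3.01 and -2.46 was 0.41. The spot error of a difference combines the errors of its 2 arrays. Each is the spread between spots expected at that level, from probes printed 10 times, over the square root of the probe's spot number. The spot error holds printing and scanning error only. ARRDC4, an alpha-arrestin that responds to glucose, had levels of 1.80 and 1.25 in non-MG cells and of -0.59 and -0.81 in MG cells. The others among the 12 lowest members with a symbol were LINC00659, EGR1, ANGPTL4, BCL11A, EFEMP2, FER1L4, CACNA1G and NLRP4, with mean differences from -2.10 to -1.62. EFEMP2, an extracellular matrix protein needed for elastic fibers, had differences of -1.66 and -1.69. CACNA1G, a T-type calcium channel subunit, had differences of -1.50 and -1.82, and NLRP4, an NLR family gene, -1.68 and -1.56. The size of the differences of dim genes depended on the background correction. With normexp correction and an offset of 50, the mean difference of ANXA10 went from -2.73 to -1.16, behind those of LINC00659, EGR1, ANGPTL4, ARRDC4 and others. That of BCL11A went from -1.71 to -0.85, of EFEMP2 from -1.67 to -0.82, of CACNA1G from -1.66 to -0.86 and of NLRP4 from -1.62 to -0.68. DHRS2 at -2.93 and ANKRD37 at -2.55 stayed the lowest of the 63 members named by the rule, of which 28 had a mean difference smaller by more than 1.5 times.

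**Figure D1:**
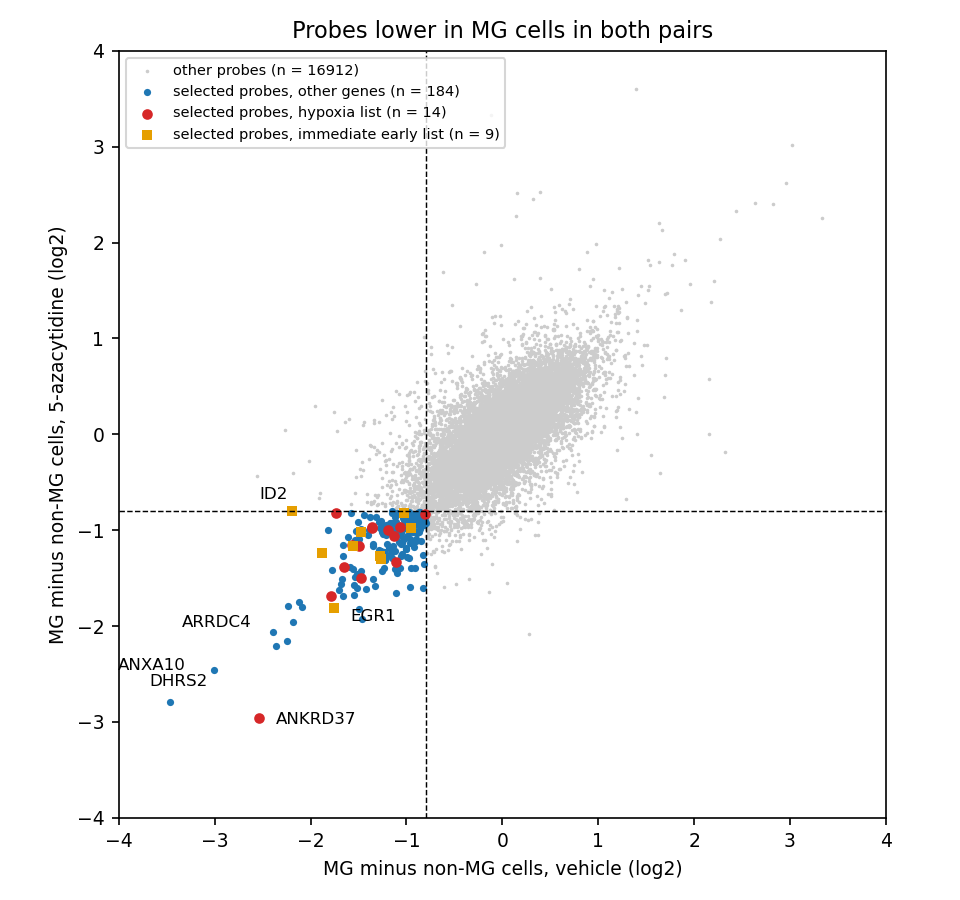
MG minus non-MG level under vehicle (x axis) and after 5-azacytidine (y axis), both in log2, for 17119 probes, with dashed lines at -0.8 and 1 unselected probe beyond the axes. The 207 selected probes fill the lower left corner, where DHRS2, ANXA10 and ANKRD37 lie farthest out and ID2 lies on the upper edge.

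The limit did not part the members from a separate population. The members nearest to it were FAM238C, KDM3A and ID2, whose smaller difference was -0.80 each. Just outside stood LOC100506271, ACR and RASD2, whose smaller difference was also -0.80 to 2 decimals and lay between -0.799 and -0.796. Within 0.1 of the limit lay 51 named genes on the inside and 125 on the outside. Among the members, 84 were at least 2-fold lower in both pairs and 4 were at least 4-fold lower in both. The median fold of the members was 2.15 with vehicle and 2.03 after 5-azacytidine.

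Hypoxia and glycolysis genes made up the largest group. Of 38 measured genes of the hypoxia list, 14 were members (36.8%, beside 1.41% of all genes), 36 were lower in MG cells in both pairs and none was higher in both. Over all genes tested, 36.0% were lower in both pairs. With median centering, 33 genes of the list were lower and 3 higher in both pairs, beside 16.4% of all genes lower. The medians of the list were -0.76 with vehicle and -0.68 after 5-azacytidine, beside 0.01 and 0.05 over all genes. Because the list and its members were known from earlier work on these arrays, the count is a description of them.

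ANKRD37, an ankyrin repeat protein encoded by a direct target of hypoxia-inducible factor, had levels of 5.85 and 5.46 in non-MG cells with vehicle and 5-azacytidine and of 3.31 and 2.50 in MG cells. Both MG arrays lay below both non-MG arrays, and the difference was -2.54 with vehicle and -2.96 after 5-azacytidine. ANGPTL4, a secreted inhibitor of lipoprotein lipase, had levels of 6.21 and 5.81 in non-MG cells and of 4.42 and 4.12 in MG cells, with differences of -1.79 and -1.69. ADM encodes the peptide adrenomedullin, a vasodilator, and its probe was printed 10 times on each array. Its level was 7.22 ± 0.07 (SD between 10 spots) in non-MG cells and 5.72 ± 0.08 in MG cells with vehicle, and 6.59 ± 0.09 and 5.43 ± 0.05 after 5-azacytidine. The highest MG spot lay below the lowest non-MG spot in both pairs. DDIT4, an inhibitor of the mTORC1 kinase complex, was also printed 10 times and had 7.41 ± 0.01 and 6.05 ± 0.06 with vehicle and 6.79 ± 0.05 and 5.82 ± 0.04 after 5-azacytidine, again without overlap of the spots.

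The enzymes of glucose use among the members were HK2, ALDOC, ENO2 and PDK1. HK2, the hexokinase that traps glucose in the cell, had levels of 5.14 and 4.80 in non-MG cells and of 3.58 and 3.64 in MG cells. ALDOC, an aldolase, had 4.44 and 4.15 in non-MG cells and 2.96 and 2.64 in MG cells. ENO2, an enolase, had differences of -1.19 and -0.99. PDK1, the kinase that shuts off pyruvate dehydrogenase, had levels of 2.39 and 2.16 in non-MG cells and of 0.65 and 1.34 in MG cells. Its difference was -1.74 with vehicle and -0.82 after 5-azacytidine, among the 11 member genes where it was smaller by more than 0.5 in the treated pair. NDRG1, a stress-responsive cytoplasmic protein, was the brightest member of the list with a mean level of 6.82, and had differences of -1.65 and -1.38. P4HA1, the catalytic subunit of collagen prolyl hydroxylase, had differences of -1.07 and -0.96.

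BHLHE40 and MXI1, transcriptional repressors, had differences of -1.36 and -0.98 and of -1.11 and -1.33. INSIG2, which holds back sterol synthesis, had -1.13 and -1.06, and KDM3A, a histone demethylase, -0.80 and -0.83. MXI1 and INSIG2 had other probes that were not selected, 2 and 1, and these were lower in MG cells as well. HILPDA, a lipid droplet protein induced by hypoxia that is not on the list, was a member too, with levels of 5.13 and 4.90 in non-MG cells and of 3.92 and 3.96 in MG cells. Its name is given because of its role, after its values were seen. Genes of the list that missed the limit included BNIP3 at -1.07 and -0.79, SLC2A1 at -0.84 and -0.33, PGK1 at -0.72 and -0.55, VEGFA at -0.63 and -0.55 and LDHA at -0.50 and -0.35, each a mean over the tested probes of the gene. The abundant glycolytic enzymes GAPDH (-0.31 and -0.39) and TPI1 (-0.16 and -0.13) differed less, and CA12 and PGAM1 did not lie on one side of 0 in both pairs.

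The genes that make and control the factor were listed after the values were seen. None of the 9 measured genes of that list was a member, beside 1.41% of all genes, and a list this short says little. In both pairs 5 were lower in MG cells and 2 higher, beside 36.0% of all genes lower and 5625 of 13146 higher. HIF1A, the alpha subunit, was slightly higher in MG cells on its brighter probe, by 0.25 with vehicle and 0.38 after 5-azacytidine. EPAS1, the related alpha subunit, had differences of -0.65 and -0.39, and VHL, which marks the alpha subunits for degradation, -0.06 and -0.08. EGLN1, the main oxygen-sensing hydroxylase and itself a target, had -0.93 and -0.64, and EGLN3 -0.56 and -0.81. RNA levels of these genes do not measure the stability of the protein.

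Immediate early genes formed another group. The list of 47 such genes was drawn up after the values were seen, with members and non-members of the families alike. Of 44 measured, 9 were members (20.5%, beside 1.41% of all genes). In both pairs 26 were lower in MG cells and 11 were higher, beside 36.0% of all genes lower. With median centering 19 (43.2%) were lower and 15 higher in both pairs, beside 16.4% of all genes lower and 8650 of 13146 higher. The members were then 5, and the median of the list changed sign in the 5-azacytidine pair, from -0.21 to 0.04. With normexp background correction 3 of the list were members, and at a limit of 1 there were 6. EGR1, a zinc finger transcription factor, had levels of 5.80 and 5.57 in non-MG cells and of 4.04 and 3.76 in MG cells, so both MG arrays lay below both non-MG arrays. EGR2 had differences of -1.26 and -1.30. FOS, a subunit of the AP-1 factor, had levels of 1.27 and 1.18 in non-MG cells and of 0.00 and -0.10 in MG cells, a difference of -1.27 in each pair. FOSB had differences of -1.88 and -1.24 at low levels, with a spot error of 0.41, and its mean difference of -1.56 was -0.59 with normexp correction. JUNB had differences of -1.47 and -1.02, and FOSL2 -0.95 and -0.98.

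ZFP36 and ZFP36L1 encode proteins that bind AU-rich messages and speed their decay. ZFP36 had levels of 4.84 and 4.31 in non-MG cells and of 3.29 and 3.15 in MG cells. ZFP36L1 had 5.88 and 5.79 in non-MG cells and 4.86 and 4.97 in MG cells, and its other probe, at -0.62 after 5-azacytidine, was not selected. ID2, an inhibitor of basic helix-loop-helix factors, had the least stable difference of all members. Its selected probe had levels of 3.96 and 3.98 in non-MG cells, 1.77 in MG cells with vehicle and 3.18 in MG cells with 5-azacytidine, so that the difference was -2.19 in one pair and -0.80 in the other. The second probe of ID2, which is brighter, had -0.72 in both pairs. Other family members went elsewhere. JUN had differences of -0.46 and 0.30, IER2 -0.37 and -0.44, MYC -0.39 and -0.25 and FOSL1 0.61 and 0.76. PLK2, a kinase that is also a p53 target, was higher in MG cells by 1.77 in both pairs.

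**Figure D2:**
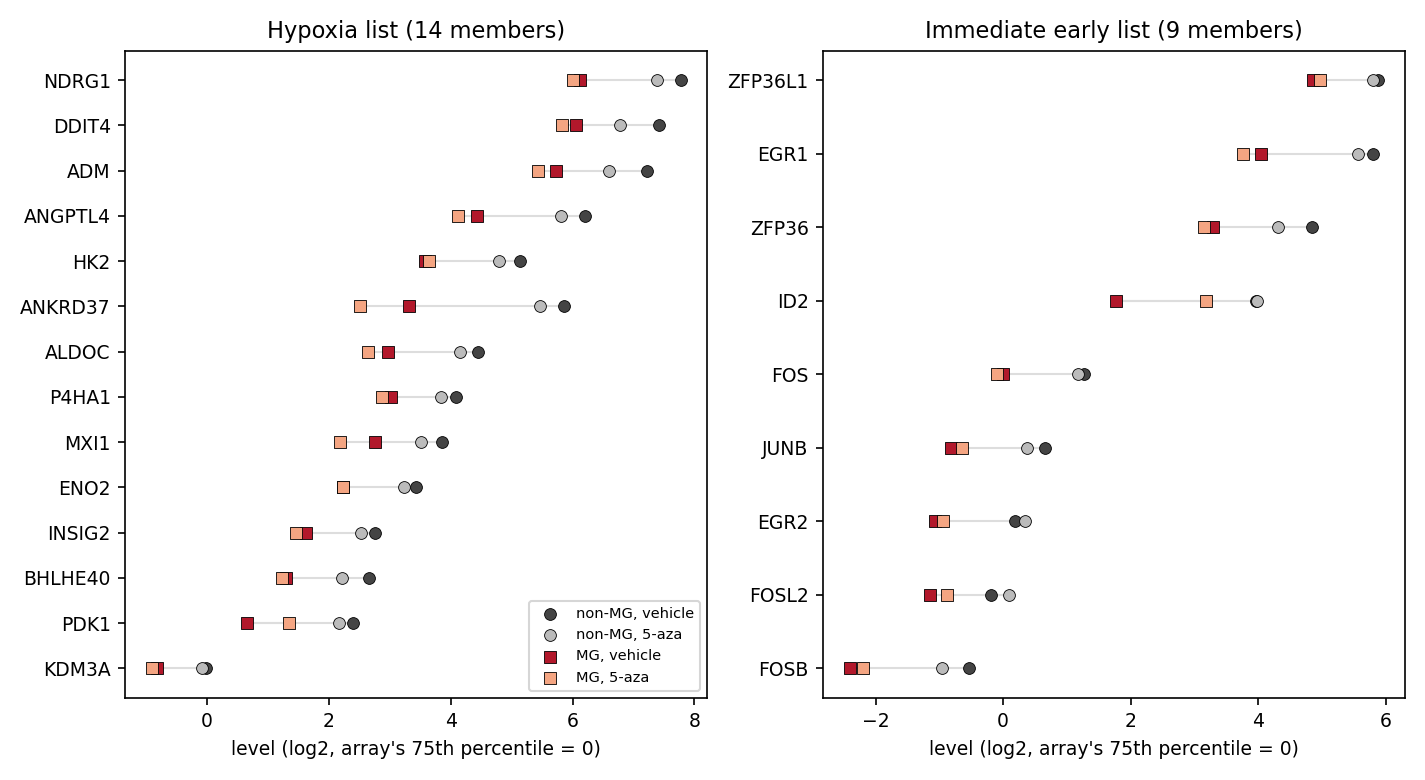
Level of each member of the hypoxia list (left) and of the immediate early list (right) on the 4 arrays, in log2 with the 75th percentile of the array at 0. Circles are non-MG and squares MG cells, dark with vehicle and light after 5-azacytidine; both squares lie left of both circles for every gene shown, and ID2 has the widest gap between its squares.

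Several members are receptors, ligands or parts of signaling pathways. PDGFA, a ligand of the platelet-derived growth factor receptors, had 2 probes, both selected. The one printed 10 times had a level of 2.72 ± 0.05 (SD between 10 spots) in non-MG cells and of 1.13 ± 0.11 in MG cells with vehicle, and of 2.38 ± 0.08 and 1.003 ± 0.09 after 5-azacytidine. LGR4, a receptor for R-spondins, had levels of 2.61 and 2.79 in non-MG cells and of 1.52 and 1.35 in MG cells. It was the only member among 26 measured genes of the Wnt and crypt stem cell list (3.85%, beside 1.41% of all genes). Of that list 9 genes (34.6%) were lower in both pairs and 11 higher, beside 36.0% of all genes lower and 5625 of 13146 higher. AXIN2, DCLK1 and SP5 were higher in MG cells by the same limit, as were 145 of all 13146 genes. WLS, which carries Wnt proteins to the cell surface, had differences of -1.25 and -1.02 on the selected probe and of -1.45 and -0.37 on the other, and FRZB, a secreted Wnt antagonist, -1.02 and -1.10. The oncostatin M receptor OSMR had -1.47 and -0.99 on the selected probe and -0.53 and -0.23 on a dimmer one. IL1RAP, a co-receptor for cytokines of the interleukin family, had -1.23 and -1.23, and the kinase JAK3 -1.002 and -1.20. RET, a receptor tyrosine kinase, had -1.26 and -1.43 on the selected probe and -0.40 after 5-azacytidine on the other. DEPTOR, an inhibitor of mTOR, had -1.28 and -1.21. RERG, a small GTPase, had -1.55 and -1.68. Genes in this and the next paragraph that are on no list were picked for their known roles after their values were seen.

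Transcription factors of differentiation were found among the members as well. BCL11A, a zinc finger repressor, had 2 probes with mean levels of 0.13 and -0.29 in non-MG cells and of -1.67 and -1.92 in MG cells. MEF2C, a MADS box factor, had levels of 2.36 and 2.10 in non-MG cells and of 0.85 and 0.50 in MG cells. RARA, the retinoic acid receptor alpha, had differences of -1.54 and -1.10 on the selected probe and of -1.16 and -0.17 on a dimmer one. With DHRS2 it was 1 of 2 members among 23 measured genes of the retinoid and dehydrogenase list (8.70%, beside 1.41% of all genes). Of that list 4 genes (17.4%) were lower in both pairs and 15 higher, beside 36.0% of all genes lower and 5625 of 13146 higher. NR2F1, an orphan nuclear receptor, had differences of -0.82 and -1.60, and NR5A2, another nuclear receptor of gut and liver, -1.14 and -1.05. ELF3, an epithelial ETS factor, had -1.09 and -0.96, BCL6 -1.06 and -0.96 and SATB1 -1.18 and -1.18.

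Epithelial genes held few members, at a share above that of all genes. Of 47 measured genes of the epithelial junction and identity list, 3 were members (6.38%, beside 1.41% of all genes). In both pairs 30 (63.8%) were lower in MG cells, beside 36.0% of all genes, and 13 were higher. The list medians were -0.30 and -0.19, the latter 0.07 with median centering. Median centering gave 17 lower (36.2%) and 20 higher in both pairs, beside 16.4% of all genes lower and 8650 of 13146 higher. KRT7 and KRT18, keratins of simple epithelia, had differences of 0.28 and 1.01 and of 0.14 and 0.28. Lower in both pairs without being members were, among others, CGN at -0.79 and -0.59 and GRHL2 at -0.50 and -0.87. CLDN3, a tight junction claudin, had levels of 4.68 and 4.56 in non-MG cells and of 3.83 and 3.70 in MG cells. TJP3, a tight junction scaffold, had differences of -1.14 and -1.17. PARD6B, a polarity protein, had -0.93 and -0.84, and PPL, a desmosome-associated plakin, -0.97 and -0.81. Both are on no list and were picked for their known roles after their values were seen. Of 8 epithelial markers of these cells, 7 were measured and none was a member, with 3 lower in both pairs and 4 higher. Among these, CDH1 had differences of -0.66 and -0.52 and EPCAM 0.05 and 0.05. Markers of other cell types were measured too. On all arrays, 1 of 8 fibroblast markers, 3 of 8 leukocyte markers, 1 of 7 endothelial markers and 3 of 6 neural markers were well above background. The summed intensity of the epithelial probes was 117482.8 to 141366.3, and that of the fibroblast, leukocyte and endothelial probes was at most 113.4, 873.0 and 63.8. The neural probes summed to 3976.3 to 4785.5, with TUBB3, a tubulin, at a mean level of 5.45. In bulk RNA, fewer cells that carry a transcript and less of it per cell cannot be told apart.

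The remaining lists held 1 or 2 members each or none, beside 1.41% of all genes. Counts this small, and the absence of members from short lists, say little about a list. Interferon-stimulated genes held 1 member of 31 measured (3.23%), IFITM1, with differences of -1.53 and -1.005. Annexins and S100 proteins held ANXA9 and ANXA10 of 22 (9.09%), imprinted genes KCNQ1 of 21 (4.76%), the BCL2 family BMF of 16 (6.25%), and unfolded protein and amino acid stress genes DDIT4 of 39 (2.56%). Solute carriers by symbol held SLC22A17 and SLC20A1-DT, a divergent transcript and not a carrier, of 231 (0.87%). Zinc finger genes by symbol held ZFP36 and ZNF585B of 377 (0.53%). Ribosomal protein genes held RPS29 of 79 (1.27%), and this member is uncertain. Its selected probe had a level of 5.32 and differences of -0.84 and -0.89, while its 3 other probes, at levels of 8.86 to 9.11, had -0.08 to -0.16 with vehicle and -0.24 to -0.26 after 5-azacytidine. No member was found among 60 proliferation genes, 34 p53 targets, 35 sterol and fatty acid synthesis genes, 23 HOX genes, 66 histone genes, 38 protease and adhesion genes, 19 mesenchymal genes, 12 intestinal genes, 17 antigen presentation genes, 20 DNA methylation genes, 11 metallothioneins and 6 BEX family genes. The proliferation genes were higher in MG cells in both pairs for 60 of 60, beside 5625 of all 13146 genes, with medians of 0.61 and 0.51. The study listed 35 genes as lower in MG cells and raised by the drug, a list it chose on these arrays. Of these, 14 were measured and none was a member. Their medians were -0.72 and -0.16, the latter 0.09 with median centering. A choice of genes that the drug raised in MG cells works against membership, so this absence says little. ZNF350, a gene of that list, was not well above background in MG cells with vehicle, so it could not be selected. Its intensities were 31.5 and 34.3 in non-MG cells and 2.60 and 15.1 in MG cells, in the order vehicle and 5-azacytidine.

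**Figure D3:**
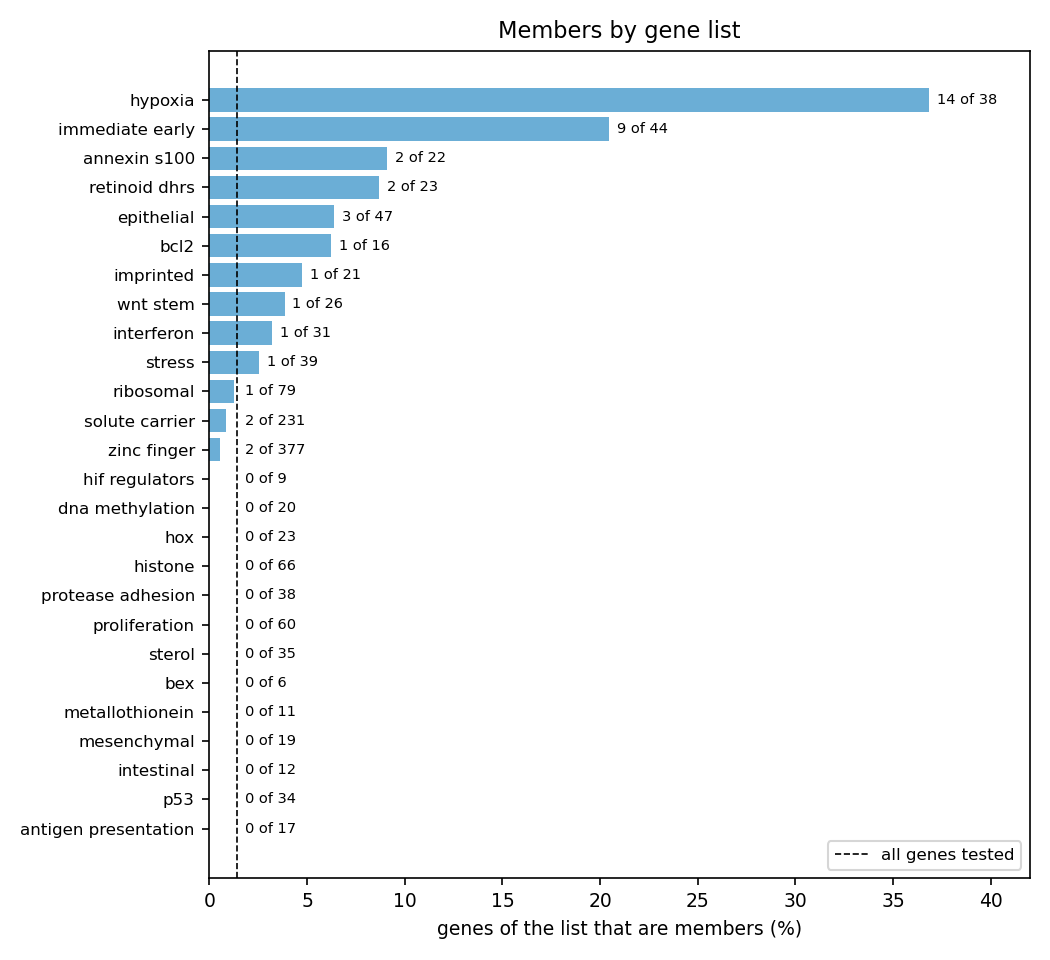
Share of the measured genes of each list that are members, in percent, with the counts beside the bars and a dashed line at the 1.41% of all genes. The hypoxia list at 14 of 38 and the immediate early list at 9 of 44 stand above the others; the immediate early and HIF regulator lists were drawn up after the values were seen.

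Separate probes of the same gene gave a further reading of the differences, although on the same arrays. Of the 186 members, 134 rested on a single tested probe and 52 had several. All probes were selected for 12 of these 52. LINC00659, a long noncoding RNA, had 5 probes, with differences from -2.36 to -2.09 with vehicle and from -2.21 to -1.79 after 5-azacytidine. SAT1, the rate-limiting enzyme of polyamine breakdown and the brightest member with a mean level of 7.81, had 2 probes with -1.11 and -1.22 with vehicle and -1.40 and -1.31 after 5-azacytidine. SELENOP, a secreted selenium carrier, had -1.54 and -1.58 on the probe printed 10 times and -1.24 and -1.29 on the other. The rest of the 12 were BCL11A, PDGFA, ANK3, FAM110C, SEMA4B, PROM2, TNFAIP8, ZDHHC11 and ARPC4-TTLL3. The last is a read-through transcript whose probes may share sequence with its parent genes.

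**Figure D4:**
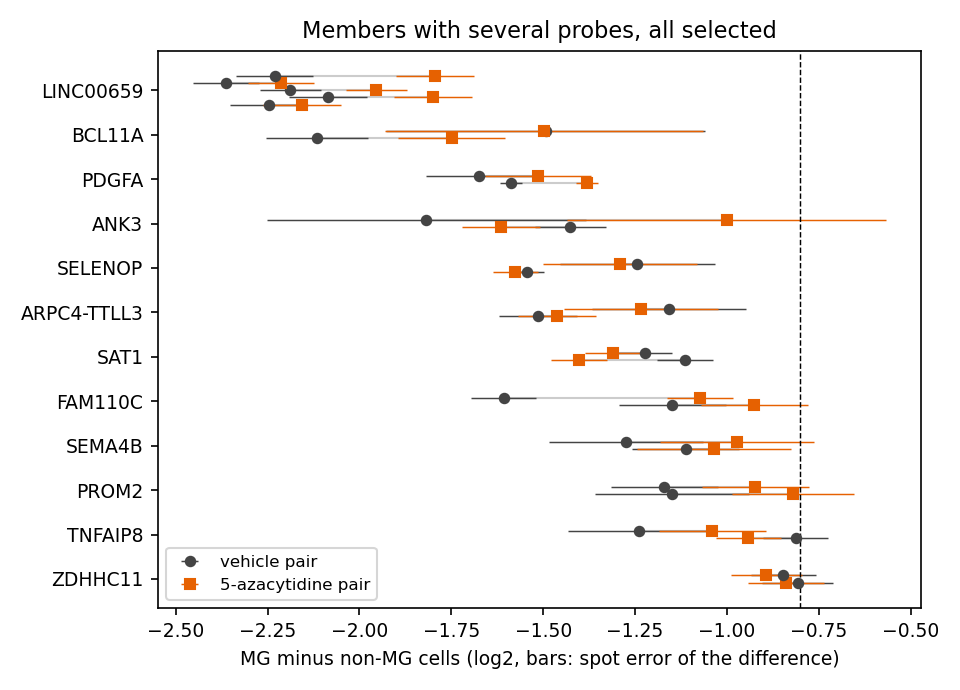
Difference between MG and non-MG cells in log2 for each probe of the 12 members with several probes that were all selected, circles for the vehicle pair and squares for the 5-azacytidine pair, with bars for the spot error of the difference and a dashed line at -0.8. The 5 probes of LINC00659 lie between -2.36 and -1.79, and those of ZDHHC11 lie next to the limit.

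The 59 probes of member genes that missed the limit had medians of -0.58 with vehicle and -0.57 after 5-azacytidine. Of these, 54 (91.5%) were below 0 in both pairs, beside 35.8% of all probes tested. In the vehicle pair 15 were lower by at least 0.8 and in the 5-azacytidine pair 7, beside 3.33% and 2.68% of all probes tested. No probe among the 59 could pass in both pairs, because it would then have been selected. Among the 5 exceptions were probes of GPR155, LINC-PINT, PAG1 and an accession without a symbol. GPR155 had a bright probe at a level of 8.73 that differed by 0.02 and -0.26, while the selected one was dim. LINC-PINT, a p53-induced noncoding RNA, had 9 probes of which 2 were selected. POTED, GOLGA8A and RASA4B belong to families of near-identical genes, so their probes may also take up RNA of other copies, which was not tested.

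Of the 207 selected probes, 198 were single spots and 9 were printed 10 times. For all 9, which measured ADM, DDIT4, PDGFA, SELENOP, SMIM14, ANKZF1, RNF112, RUNDC3B and ANXA9, the spots of the 2 cell types did not overlap in either pair; the rule had selected on the means of these spots. ANXA9 came closest, with a highest MG spot of -1.27 and a lowest non-MG spot of -1.03 with vehicle. The spot error of the vehicle difference ran from 0.02 to 0.43 over the selected probes, with a median of 0.15. The limit of 0.8 is itself several times the smaller of these errors, and for 8 probes at least 1 difference was below 2 times its error.

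The members were dimmer than most genes. The median level of the selected probes was 0.06, beside 1.14 for all probes tested, and 93 of the 186 members had a mean level below 0. At levels of at most -1, 1.76% of the probes were selected, and at levels above 4, 0.62%. The brightest members were SAT1, NDRG1, DDIT4, ADM and ZFP36L1, and 15 members had a mean level above 4. Long noncoding RNAs were 17 of the 174 named members. That was 3.36% of the 506 measured, against 1.29% of the 11752 protein-coding genes. Their share was also higher within a range of level. Below a level of 0, 3.21% of the probes of long noncoding RNAs and 1.61% of those of protein-coding genes were selected, and from 0 upward 3.38% and 0.84%. Of the 11 long noncoding probes selected from 0 upward, 5 belonged to LINC00659, and without that gene the share was 1.88% (6 of 320), a count made after seeing the data. LUCAT1 and NEAT1 were among the 17 long noncoding members. NEAT1, the scaffold RNA of paraspeckles, had 2 selected probes of 4, and all 4 were lower in MG cells in both pairs.

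The response to 5-azacytidine uses the same arrays in another comparison, and its mean over both cell types was not used in the choice of members. The response within 1 cell type shares an array with each difference that chose the members. The median mean response of the selected probes was -0.23, beside -0.03 for all probes. Of the selected probes, 144 (69.6%) were lower after the drug in both cell types, beside 37.8% of all probes. Without the background filter 829 genes passed the limit, and their median mean response was -0.03, so the lower median depended on that filter. For the 156 probes that were higher in MG cells by the same limit, the median was 0.17 and 16.7% were lower in both. In non-MG cells the median response of the selected probes was -0.26 and in MG cells -0.19. In each range of level the medians of the selected probes, -0.33 to -0.17 in non-MG and -0.26 to -0.11 in MG cells, lay below those of all probes.

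Responses of 0.8 or more were few. In MG cells 5 selected probes (2.42%) were higher after the drug by that much, beside 1.53% of all probes, and in non-MG cells 1 (0.48%), beside 0.847%. In MG cells 8 (3.86%) were lower by that much, beside 0.456%, and in non-MG cells 5 (2.42%), beside 0.444%. APOC1, an apolipoprotein, was higher in both, with levels of -1.39 and -0.35 in non-MG cells and of -2.71 and -1.21 in MG cells, in the order vehicle and 5-azacytidine. The others that were higher in MG cells after the drug were ID2 by 1.41, DHRS2 by 0.996, LUCAT1 by 0.88 and TUBAL3 by 0.81, and NLRP4 had responses of 0.46 and 0.59. The value of ID2 is that of its selected probe, and its other, brighter probe had a response of -0.22 in each cell type. After the drug, DHRS2 in MG cells was still 6.95-fold below treated non-MG cells. Among those lower were LAMB2P1, a pseudogene, with responses of -0.68 and -1.12 in non-MG and MG cells, and HDHD5-AS1, an antisense transcript, with -0.90 and -0.99. SPTB, a spectrin of the membrane skeleton, had -0.72 and -0.81, KRTAP19-8 -0.90 and -0.62, and FRZB -0.64 and -0.71. NR2F1 had -0.25 and -1.03.

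**Figure D5:**
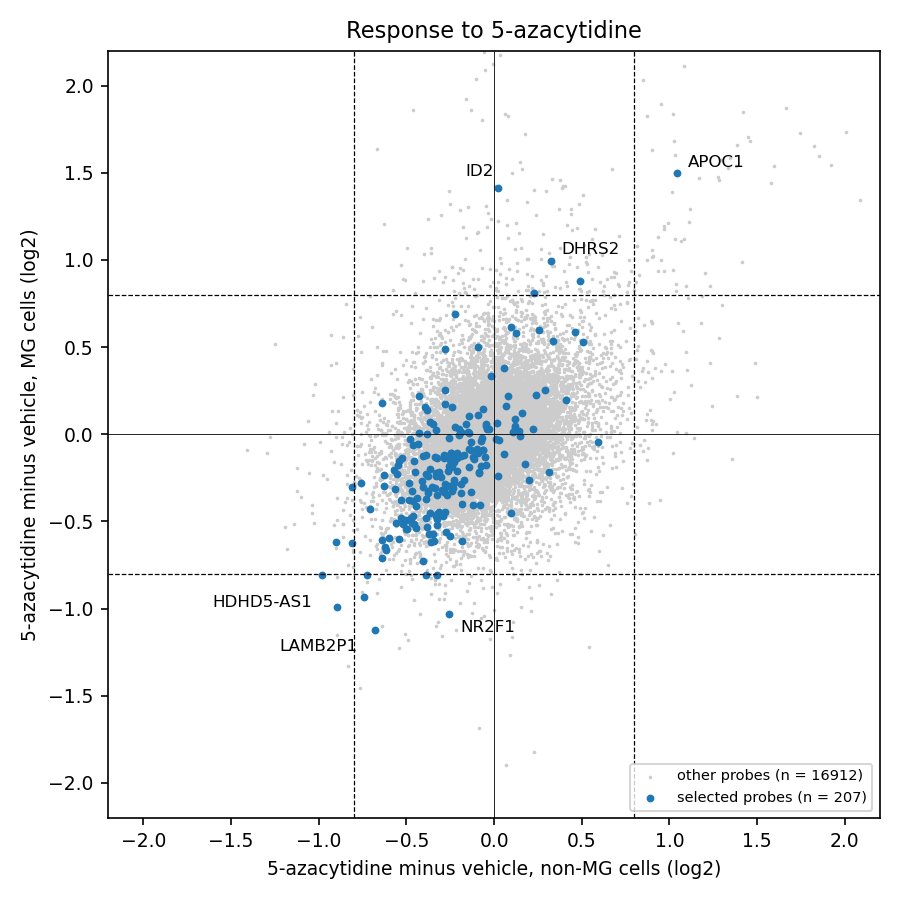
Response to 5-azacytidine in non-MG cells (x axis) and MG cells (y axis), in log2, for the 207 selected probes and all other probes tested, with dashed lines at 0.8 either way and 30 unselected probes beyond the axes. Of the selected probes 144 lie in the lower left, below 0 on both axes, and APOC1, ID2 and DHRS2 lie highest.

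Most differences were of like size in the 2 pairs. For 171 of the 186 members they were within 0.5 of each other. The difference was smaller after the drug by more than 0.5 for 11, among them ID2 (by 1.39), PDK1 (by 0.92), DHRS2 (by 0.67), FOSB (by 0.64) and IFITM1 (by 0.52). It was larger by more than 0.5 for NR2F1, PCSK5, ZSWIM4 and FOXP1. The change of ID2 was on its selected probe, and its brighter probe had a difference of -0.72 in each pair. The selected probes of PCSK5 and FOXP1 were dim, with a spot error of up to 0.43, and the brightest probes of these genes had -0.40 and -0.30 and -0.14 and -0.15. The rule requires both differences to pass, so members could not have lost the difference after the drug, and like sizes are partly fixed by it. The share of all genes with differences within 0.5 of each other was not counted.

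The members were spread over the genome. In the order of the RefSeq annotation, 4 pairs of members had no other measured gene between them, which were INSL3 and JAK3, FER1L4 and SPAG4, CFAP96 and PDLIM3, and AKR1C3 and TUBAL3. Of these, only INSL3 and JAK3 had no annotated gene between them at all. FER1L4, a transcribed pseudogene, had levels of 3.41 and 2.94 in non-MG cells and of 1.71 and 1.32 in MG cells. SPAG4, a nuclear envelope protein first described in sperm, had 0.15 and -0.09 in non-MG cells and -1.51 and -1.35 in MG cells. AKR1C3, an aldo-keto reductase of steroid and prostaglandin metabolism, had differences of -1.48 and -1.43. A comparison of promoter GC share between members and other genes was void, because only 74.1% of the named members had a promoter in the set.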

How the data were processed

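Per the labels and file headers, the authors scanned 4 one-color arrays with Agilent Feature Extraction 11.5.1.1, which gave a background-corrected intensity and background flags for every spot (build hg19). The labels name RNAiso Plus for RNA extraction and the methods name another kit. The deposited value table holds the authors' log2 values, 24161 of whose probes were matched. Differences between its columns lay within 0.01 of those computed here for 98.8% to 99.4% of probes, around an offset below 0.005. The medians of its columns were -0.01 to 0.01, and how genes were centered is not given in the sources used here.

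Control spots and outlier spots were left out, which removed 5 of 50599 probes. Spots of a probe were averaged, and log2 values were set to 0 at the 75th percentile of the array, which was an intensity of 75.2 to 98.7. Of 50594 probes, 21366 to 21866 per array were well above background, the lowest at an intensity of 9.95 to 11.8, and no spot was saturated. The number of arrays limits the precision. Of the tested probes, 97.0% matched a current RefSeq symbol. A gene's value is the mean of its selected probes. The members and all lists were chosen with earlier results of these data known, and 2 lists were drawn up after the values of the members were seen. Named genes are the 12 lowest with a symbol by mean difference, the list members, those with several probes that were all selected, the 5 largest and smallest mean responses to the drug, the 5 brightest, and 3 on each side of the limit, plus others picked for their roles as stated. Python 3.11.15 and limma 3.58.1 in R 4.3.3 were used. The selection code was run on simulated data with differences well past the limit, which says nothing about members near it. In all, 10 alternatives were planned and 1 was added later.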

Additional observations from a re-analysis of the deposited data

How the results depend on the processing

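No paired analysis was possible because each condition has 1 array and no replicate numbers. For the same reason no array could be left out, and the slide could not be a block because there was 1 slide. Median centring adds 0.19 to every difference with vehicle and 0.26 after 5-azacytidine, and the number of members depends on this choice.

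With each array centred on its median, 72 genes passed (8 of the hypoxia list) and 495 passed upward, and 71.4% of their other probes were lower in both pairs. With normexp background correction and an offset of 50, 39 genes passed (8 of the hypoxia list), 72 passed upward, and the share was 100%; median spot signals stood in for mean signals. A limit of 0.6 gave 499 genes with 78.2% of other probes lower, and a limit of 1 gave 86 genes with 8 of the hypoxia list. Without the background filter 829 genes passed and 369 upward, with 60.6% of other probes lower and a median mean response to the drug of -0.031. Quantile normalization gave 191 genes, of which 170 were shared with the 186; the authors' values gave 183, all shared; a log2 intensity of at least 5 gave 132, all shared; the mean over all probes of a gene gave 156, of which 154 were shared; and signals raised to the detection limit gave 237, which held all 186. Centring on the median of the tested probes, an alternative chosen after seeing the data, gave 220 and held all 186. The 63 members named by the rule had 681 values over 11 alternatives, and all 681 were below 0, which the choice of members with both differences at or under -0.8 largely fixes; 129 of the values moved by more than the spot error.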
